A study of Mus musculus with 11 samples.

Results

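The ATF4 and unfolded protein stress regulators described here are 10 genes fixed by symbol, namely Atf4, Ddit3, Trib3, Asns, Chac1, Sesn2, Atf5, Xbp1, Atf6 and Wfs1. All 10 were among the 23284 genes listed for each tumor, and all 10 passed the filter on low counts that left 15237 genes. RNA was measured in 11 bulk tumors of mice that develop small cell lung cancer (SCLC), a neuroendocrine carcinoma. Every tumor had the same alleles per the labels: Rb and p53 alleles, TRE-MYCN, which is MYCN under a promoter that doxycycline can switch on, and LSL-RTTA, the transactivator this switch needs, itself released by Cre. Doxycycline was given in the 7 tumors of the MYCN ON group, and the 4 tumors of the MYCN OFF group had been off it for 7 days. The drug and the transgene changed together, so their effects cannot be told apart. The labels name neither the Cre driver nor the mouse each tumor came from, so p-values cover only the spread among these 11 tumors, part of which may be technical.

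Cells that lack amino acids or accumulate unfolded protein in the endoplasmic reticulum phosphorylate the initiation factor eIF2alpha, which lowers general translation but favours translation of the transcription factor ATF4. ATF4 then activates genes for amino acid supply, such as Asns, and, under prolonged stress, genes such as Ddit3, Trib3 and Chac1. The sensors IRE1 (Ern1) and ATF6 act beside the eIF2alpha kinase PERK (Eif2ak3): IRE1 splices Xbp1 mRNA into its active form, and ATF6 is cut in the Golgi to release a transcription factor. Much of this control acts on translation, splicing and cleavage, which counts of mRNA per gene do not measure.

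Reads on genes ranged from 8951733 to 13123838 per tumor. The gene symbol Mycn was at 36.5 to 171 CPM (depth-scaled counts, with TMM factors) in MYCN ON and 5.63 to 15.7 in MYCN OFF, without overlap. How far reads of the TRE-MYCN transgene count toward this symbol was not tested. Neuroendocrine markers were present in every tumor, with a summed level of 1575 to 7913 CPM. The summed level of 10 lung epithelium markers varied more, from 3.45 to 3330 CPM in MYCN ON and from 38.6 to 32880 CPM in MYCN OFF. The 5 tumors with at least 100 CPM, called lung-containing below, were numbers 1, 3 and 4 of MYCN OFF and numbers 3 and 5 of MYCN ON. The rest are called lung-poor, which does not mean free of other tissue. Muscle markers summed to 334 CPM in the lung-poor MYCN OFF tumor 2, against 7.43 to 65.5 CPM in the lung-poor MYCN ON tumors. Immune markers summed to 194 to 812 CPM in MYCN ON and 339 to 5716 CPM in MYCN OFF. In bulk samples, fewer cells of a type and less RNA per cell cannot be told apart. How much these cells contribute to each result was not tested beyond the marker-score and lung-split values given beside it.

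The binding element of ATF4 with its C/EBP partners (CARE), searched as TGATGNAA on both strands, was looked for in the RefSeq promoter table (build GRCm38.p6; 250 bases before to 50 after each start). The table held 9 of the 10 members, all but Atf6. A match was found in 3 of the 9 (Asns, Chac1 and Trib3), beside 4.06% of all 27025 promoters. Among the other ATF4 target genes described below, 8 of 28 promoters held it. The endoplasmic reticulum stress element (ERSE), searched as CCAAT and CCACG with any 9 bases between them, on both strands, was in 0 of 9 members, in 7 of 18 promoters of reticulum chaperones and foldases, and in 0.13% of all promoters. The MYC family E-box CACGTG was in 0 of 9 members and 7.24% of all promoters. Matches are descriptions of sequence, and a missing match says only that these letters are not in this window. The following stretches before the start are shown because they carry the element in a member or in a named gene of the lists, with the match in capitals. The Asns stretch lies at chr6:7693210-7693262 (minus strand), Chac1 at chr2:119351019-119351086 (plus), Pycr1 at chr11:120643814-120643881 (minus), Hspa5 at chr2:34771995-34772073 (plus) and Canx at chr11:50325770-50325848 (minus).
Asns: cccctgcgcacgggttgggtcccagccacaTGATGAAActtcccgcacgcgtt
Chac1: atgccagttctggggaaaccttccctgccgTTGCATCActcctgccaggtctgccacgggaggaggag
Pycr1: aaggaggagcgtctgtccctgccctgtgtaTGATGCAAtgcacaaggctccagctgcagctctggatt
Hspa5: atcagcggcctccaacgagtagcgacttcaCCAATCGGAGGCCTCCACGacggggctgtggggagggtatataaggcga
Canx: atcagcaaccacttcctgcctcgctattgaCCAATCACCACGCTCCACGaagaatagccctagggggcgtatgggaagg
The CARE match starts 23 bases before the start in Asns and 193 before it in Chac1, while the match in Trib3 lies 15 bases after it. Of these 3 members, Asns was called higher in MYCN ON, and Chac1 and Trib3 were not called.

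The 10 members moved in different directions. A gene was called at an adjusted p below 0.05 in edgeR's quasi-likelihood test with Benjamini-Hochberg adjustment over all 15237 genes. In MYCN ON, 2 members were higher (Atf4 and Asns), 3 were lower (Wfs1, Ddit3 and Xbp1) and 5 were not called (Sesn2, Trib3, Chac1, Atf6 and Atf5). Over all genes, 29.4% were called, 16% higher and 13.4% lower. The 5 of 10 called members and the 3 of 10 lower ones are to be read against those shares, on which so few genes give little precision. The median log2 fold change was -0.36 for the members and 0.0023 for all genes. Wfs1 and Ddit3 were the 2 members called without MYCN OFF tumor 1, which had the highest lung and immune marker sums (18.8% of all genes called), with a lung marker score (10.8%) or an immune marker score (10.6%) added to the model, and at an adjusted p below 0.01 (11.2%). The CPM ranges of the groups did not overlap for 3 members, all higher in MYCN OFF, beside 16.8% of all genes (11.4% higher in MYCN ON and 5.41% higher in MYCN OFF).

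**Figure D1:**
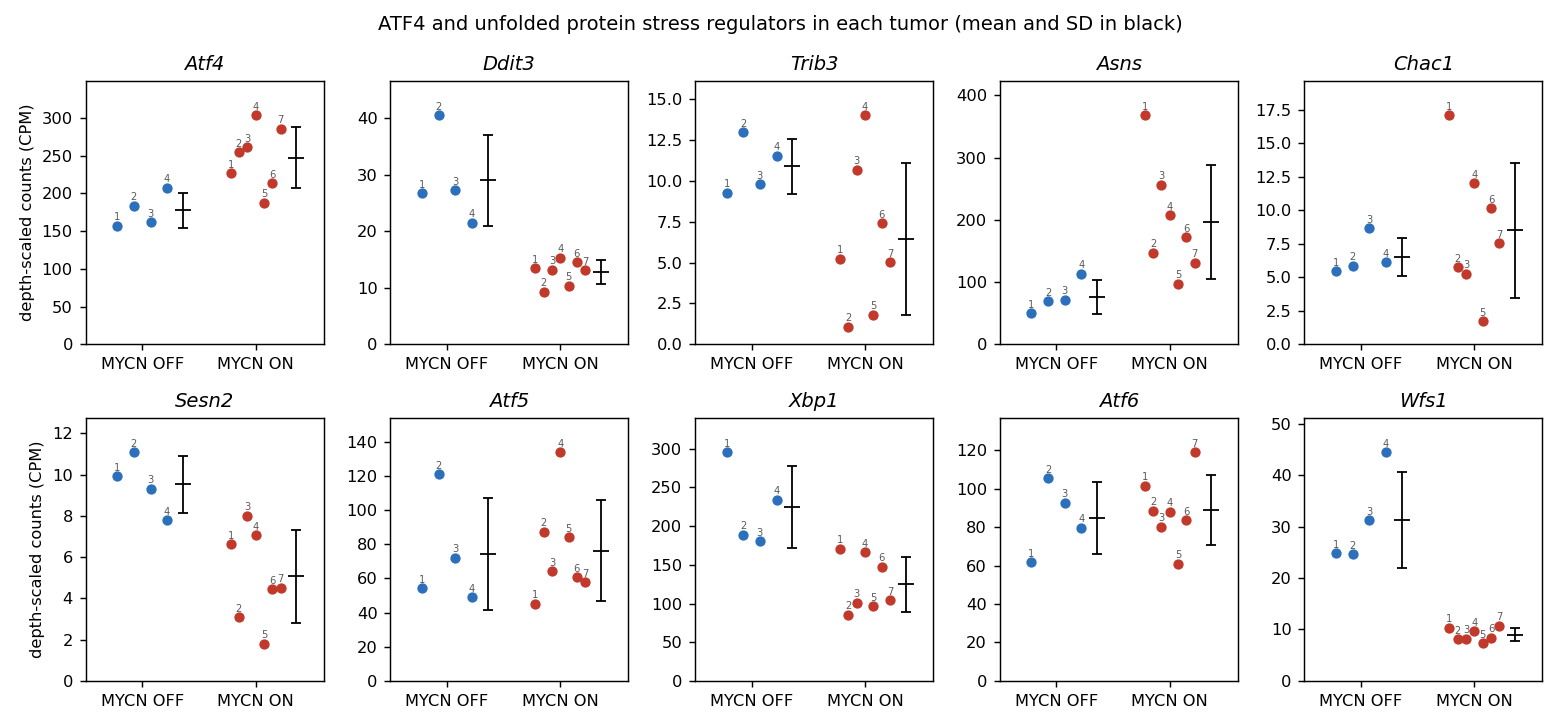
Depth-scaled counts (CPM) of the 10 genes in each tumor, with points numbered by tumor and the mean and SD of each group in black (4 MYCN OFF tumors in blue, 7 MYCN ON tumors in red). The groups do not overlap for Ddit3, Xbp1 and Wfs1, where every MYCN OFF tumor lies above every MYCN ON tumor, and they overlap for the other 7 genes.

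Atf4, the transcription factor of the arm, was slightly higher in MYCN ON. It was at 157, 184, 162 and 207 CPM in MYCN OFF tumors 1 to 4, and at 188 (lowest), 255 (median) and 304 CPM (highest) in MYCN ON. The lowest MYCN ON tumor, number 5, lay below MYCN OFF tumor 4, and the other 6 lay above all MYCN OFF tumors. The difference was 1.39-fold (log2 fold change 0.48, SE 0.16, edgeR adjusted p = 0.0434). This call was marginal, and it was lost in 19 of 24 alternative settings. Among these were RLE factors (edgeR adjusted p = 0.073), the lung score (log2 fold change 0.37, adjusted p = 0.27) and the immune score (0.35, adjusted p = 0.32). It was kept in 3 of 11 fits with 1 tumor left out (those without number 5 or 6 of MYCN ON or number 4 of MYCN OFF), with adjusted p-values of 0.0242 to 0.118 over the 11. With library totals as the scaling, which moved the median of all genes by -0.31, the log2 fold change was 0.17 (adjusted p = 0.462).

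Asns, asparagine synthetase, was the member with the largest fold difference toward MYCN ON. It was at 49.6, 69.2, 71.8 and 113 CPM in MYCN OFF tumors 1 to 4, and at 97.3, 172 and 368 CPM (lowest, median and highest) in MYCN ON. Only tumor 5 of MYCN ON lay below the highest MYCN OFF tumor. The difference was 2.59-fold (log2 fold change 1.37, SE 0.36, edgeR adjusted p = 0.0166). It was 1.18 with the lung marker score in the model (adjusted p = 0.129) and 1.20 with the immune marker score (adjusted p = 0.159), and without MYCN OFF tumor 1 it was 1.22 (adjusted p = 0.0518).

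Ddit3, the stress transcription factor CHOP and a transcriptional target of ATF4, moved against Atf4 and Asns. Its level was 26.7, 40.5, 27.2 and 21.5 CPM in MYCN OFF tumors 1 to 4, and 9.30, 13.2 and 15.3 CPM (lowest, median and highest) in MYCN ON. Each MYCN OFF value lay above the whole MYCN ON range. By the fit it was 2.27-fold higher in MYCN OFF, with a log2 fold change of -1.18 (SE 0.23, edgeR adjusted p = 0.00371). The highest level was in the lung-poor MYCN OFF tumor 2, against 9.30 to 15.3 CPM in the 5 lung-poor MYCN ON tumors. That MYCN OFF tumor had a higher muscle marker sum (334 CPM) than those 5 tumors. The call held with the lung score (log2 fold change -1.38, adjusted p = 0.00937), with the immune score (-1.35, adjusted p = 0.0168) and in all 11 fits with 1 tumor left out. In the GENCODE M21 annotation Ddit3 overlaps Mars, the methionyl-tRNA synthetase gene, on the opposite strand, and reads of the shared part cannot be told apart without strand. Mars itself, looked up after the values were seen, had a log2 fold change of 0.45 and was not called (adjusted p = 0.173).

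Trib3, Sesn2 and Chac1 are further genes that ATF4 activates, and none of these 3 was called. Trib3, a pseudokinase that binds AKT, was at 9.28 to 12.98 CPM in MYCN OFF. In MYCN ON it spread from 1.06 to 14.0 CPM, with MYCN ON tumors 2 and 5 lowest and number 4 higher than all of MYCN OFF (edgeR log2 fold change -0.75, SE 0.58, adjusted p = 0.341). Sesn2, a sestrin that senses leucine and restrains mTORC1, was at 7.79 to 11.1 CPM in MYCN OFF and 1.795 to 8.01 CPM in MYCN ON. Its log2 fold change of -0.91 (SE 0.40) had an edgeR adjusted p of 0.101. DESeq2 (adjusted p = 0.0385), library totals (0.0352) and upper quartile factors (0.0495) called it lower. Chac1, which breaks down glutathione, was at 5.44 to 8.65 CPM in MYCN OFF and 1.72 to 17.1 CPM in MYCN ON, with no call (log2 fold change 0.38, SE 0.51, adjusted p = 0.596). These genes had 12 to 159 reads per tumor.

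Atf5, the ATF4 paralog that is controlled through upstream reading frames of its own, did not differ beyond its spread. It was at 76.2 ± 29.5 CPM (SD, n = 7) in MYCN ON and 74.1 ± 32.8 CPM (SD, n = 4) in MYCN OFF, with the highest levels in MYCN ON tumor 4 (134) and MYCN OFF tumor 2 (121). This is a log2 fold change of 0.041 (SE 0.32, edgeR adjusted p = 0.934). Atf5 overlaps Nup62 and Il4i1 on the opposite strand in the annotation, and values for Il4i1 are not given here. Nup62, looked up after the values were seen, was higher in MYCN ON (log2 fold change 1.01, adjusted p = 0.0163).

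Of the reticulum stress transcription factors, Xbp1 was lower in MYCN ON and Atf6 was not called. Xbp1 was at 296, 189, 180 and 234 CPM in MYCN OFF tumors 1 to 4, and at 85.8, 104 and 171 CPM (lowest, median and highest) in MYCN ON. The groups did not overlap, though MYCN ON tumors 1 (171) and 4 (166) came close to the lowest MYCN OFF tumor. By the fit it was 1.804-fold higher in MYCN OFF, a log2 fold change of -0.85 (SE 0.23, edgeR adjusted p = 0.0179). Xbp1 is abundant in plasma cells, whose markers, with those of B cells, had 6 of 7 tested genes called lower in MYCN ON, a summed level of 86.0 to 221 CPM in MYCN ON and 98.6 to 1300 CPM in MYCN OFF, and no listed marker at 0 in all tumors. In MYCN OFF tumor 2 this sum was 98.6 CPM, within the MYCN ON range, and its Xbp1 level of 189 CPM was above the highest MYCN ON value. Sdc1, not called, averaged 79.4 CPM in MYCN ON and so makes up much of the sums there. Prdm1 of the same list was at 6.35 to 10.6 CPM in MYCN OFF and 1.42 to 3.43 in MYCN ON, without overlap. The mean log2 CPM of the list was 2.75 in MYCN OFF tumor 2, near the top of the MYCN ON range (0.67 to 2.77). How much plasma cells add to Xbp1 was not tested. The adjusted p of Xbp1 was 0.0966 with the lung score (log2 fold change -0.89), 0.221 with the immune score (-0.63) and 0.0647 without MYCN OFF tumor 1 (-0.69). Atf6 was at 88.9 ± 18.1 CPM (SD, n = 7) in MYCN ON and 84.9 ± 18.6 CPM (SD, n = 4) in MYCN OFF (log2 fold change 0.066, SE 0.20, adjusted p = 0.824). The signs of the Atf5 and Atf6 differences turned with library totals as the scaling, where neither was called.

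Wfs1, wolframin, is a calcium-handling membrane protein of the reticulum that is induced in the unfolded protein response, and it separated the groups most clearly. It was at 24.8, 24.6, 31.2 and 44.5 CPM in MYCN OFF tumors 1 to 4, and at 7.34, 8.43 and 10.7 CPM (lowest, median and highest) in MYCN ON. All 4 MYCN OFF tumors lay far above the narrow MYCN ON range, and the fold was 3.49. By p it ranked 95 among the 15237 genes tested (log2 fold change -1.802, SE 0.23, edgeR adjusted p = 6.06e-04). The call held in all 11 fits with 1 tumor left out (adjusted p of 0.00109 to 0.00393), with the lung score (0.00723) and with the immune score (0.00925). MYCN OFF tumor 2, with few lung markers, was the lowest of the 4 for Wfs1 (24.6 CPM), but tumor 1, with the most lung markers, was nearly the same (24.8 CPM).

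**Figure D2:**
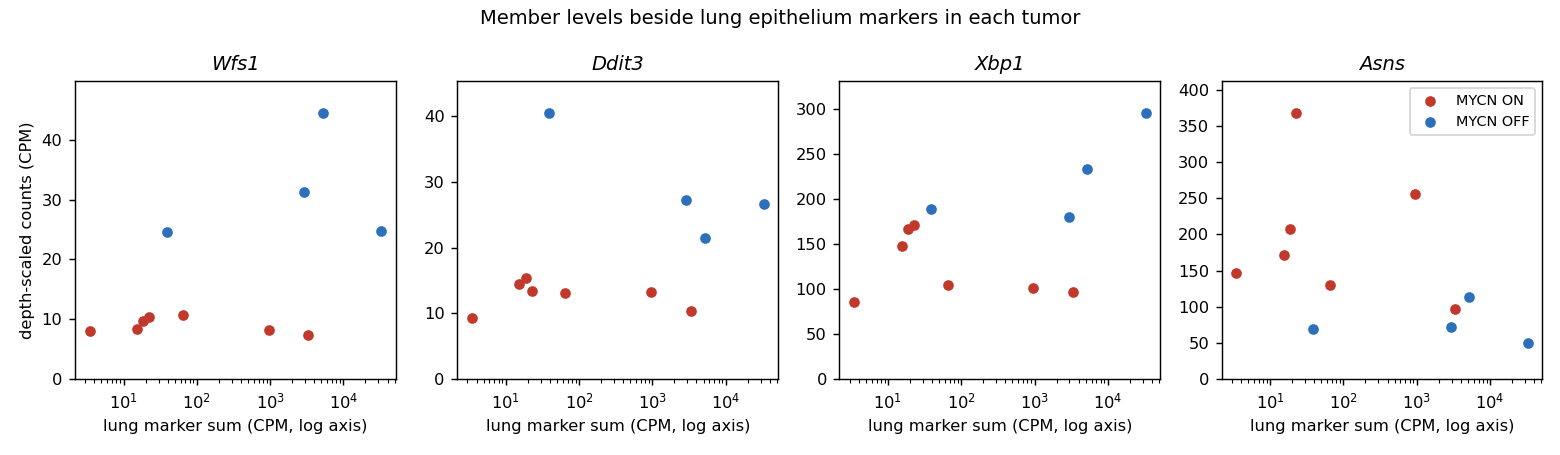
Levels of Wfs1, Ddit3, Xbp1 and Asns (CPM) against the summed level of 10 lung epithelium markers (CPM, log axis), with 1 point per tumor (blue MYCN OFF, red MYCN ON). MYCN OFF tumor 2, the blue point at 38.6 CPM of lung markers, lies above all MYCN ON tumors for Wfs1, Ddit3 and Xbp1, and below them for Asns.

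Separating the tumors by lung markers, an alternative chosen after seeing the data, left 5 MYCN ON and 1 MYCN OFF tumor that were lung-poor and 2 MYCN ON and 3 MYCN OFF tumors that were lung-containing. The log2 fold change was -1.40 and -2.11 for Wfs1 in the lung-poor and lung-containing tumors, -1.65 and -1.09 for Ddit3, -0.51 and -1.26 for Xbp1, 1.54 and 1.18 for Asns, and 0.46 and 0.35 for Atf4. All 5 kept their sign in both, although the lone lung-poor MYCN OFF tumor also had a muscle marker sum of 334 CPM. No member was called by edgeR in either set, where 3 members had an unadjusted p below 0.05 in each. Of all 15237 genes, 0 (0%) were called there either, with 2225 and 3769 at an unadjusted p below 0.05, and the lone lung-poor MYCN OFF tumor is assumed to vary like the others. Chac1 (0.82 and -0.95) and Atf5 (-0.68 and 0.34) differed in sign between the sets. Atf6 was at -0.16 and -0.14, against a small positive value over all tumors, and Trib3 and Sesn2 were negative in both.

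**Figure D3:**
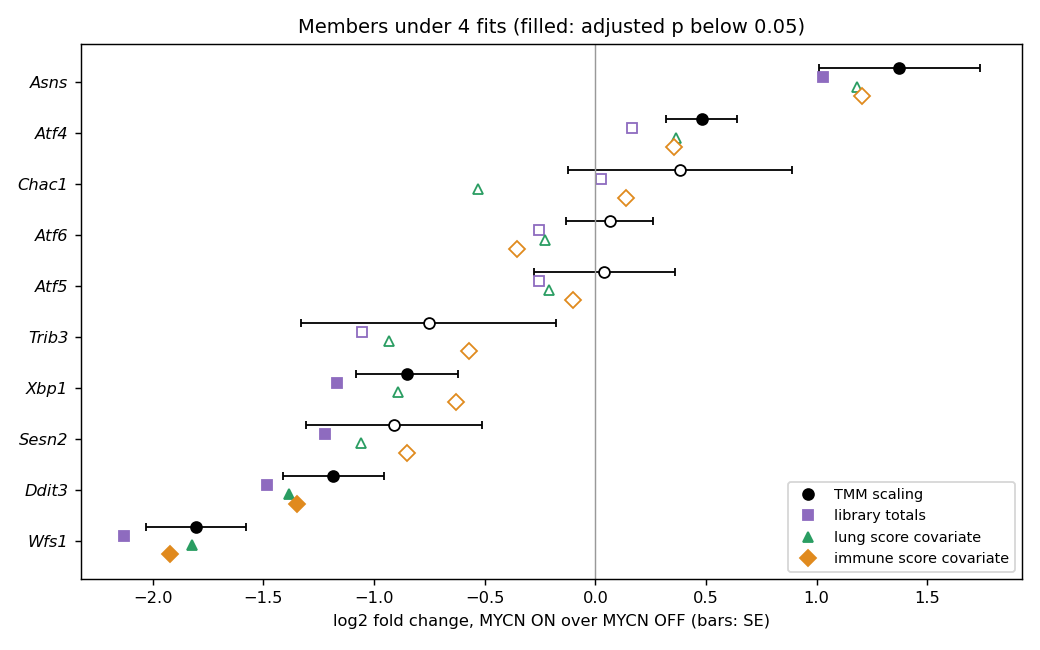
Log2 fold changes (MYCN ON over MYCN OFF) of the 10 genes under TMM scaling, library totals, and the lung or immune marker score as a covariate, with SE bars for TMM scaling and filled symbols where the adjusted p is below 0.05. Wfs1 and Ddit3 are filled in all 4 fits, and Atf4 only with TMM scaling.

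Per kilobase of annotated exon, the order of the members differed between the groups. These levels use GENCODE M21 exon lengths, not the authors' annotation. In MYCN ON they were 105 ± 17.3 CPM per kilobase (SD, n = 7) for Atf4, 72.0 ± 33.5 for Asns, 38.4 ± 11.004 for Xbp1 and 38.2 ± 14.8 for Atf5, so that Xbp1 and Atf5 did not differ beyond their spread. In MYCN OFF, Atf4 (75.3 ± 9.81, SD, n = 4) and Xbp1 (69.2 ± 16.3) did not differ beyond their spread, and Atf5 (37.2 ± 16.5) and Asns (27.8 ± 9.80) followed. Ddit3 stood at 7.45 in MYCN ON and 16.9 in MYCN OFF, Atf6 at 9.63 and 9.20, and Wfs1 at 2.37 and 8.26. Trib3, Chac1 and Sesn2 were at 1.46 to 5.19 CPM per kilobase in both groups.

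Reads of each member were also set against Atf4 reads in the same tumor, a ratio that no library scaling can change and that was chosen after seeing the data. For each 100 Atf4 reads there were 10.4 to 22.04 Ddit3 reads in MYCN OFF and 3.65 to 6.78 in MYCN ON, without overlap. The same held for Trib3 (5.56 to 7.06 against 0.417 to 4.62) and Sesn2 (3.75 to 6.32 against 0.957 to 3.07). Xbp1 (103 to 188 against 33.6 to 75.4) and Wfs1 (13.4 to 21.4 against 3.13 to 4.56) were separated too. Over all genes, 12.7% had ratios to Atf4 that were all higher in MYCN OFF without overlap, and 2.42% all higher in MYCN ON. Each of these 5 ratios had a two-sided exact permutation p of 0.00606 (0.0109 adjusted over 9 ratios), the smallest that 330 arrangements of the tumors give by this test. The log2 ratio of Ddit3 was -4.28 ± 0.28 (SD) in MYCN ON and -2.64 ± 0.45 in MYCN OFF, a difference of -1.63, and that of Trib3 was -5.66 ± 1.24 and -4.03 ± 0.15, a difference of -1.64. Asns reads per 100 Atf4 reads were higher in MYCN ON, 45.7 to 162 against 31.6 to 54.6 (exact permutation p = 0.0242, adjusted 0.0364). Atf6 (adjusted exact permutation p = 0.0779), Atf5 (0.293) and Chac1 (0.552) did not pass. A higher Atf4 level lowers all of these ratios to Atf4 alike.

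**Figure D4:**
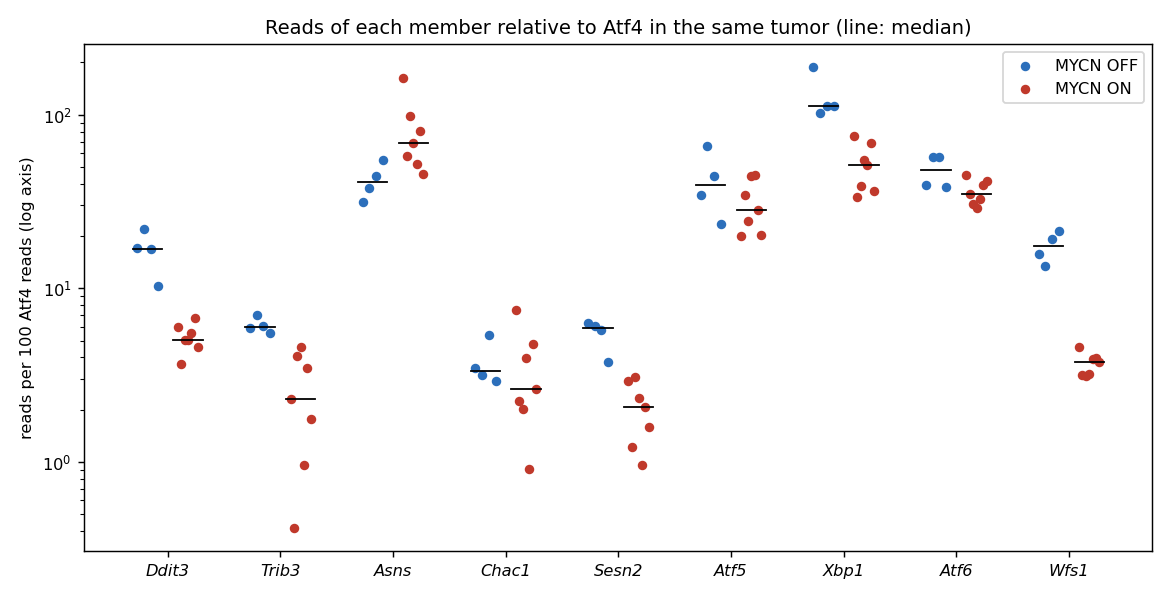
Reads of the other 9 genes per 100 Atf4 reads in each tumor (log axis; blue MYCN OFF, red MYCN ON, line at the median). Ddit3, Trib3, Sesn2, Xbp1 and Wfs1 have all MYCN ON points below all MYCN OFF points, while Asns has the higher median in MYCN ON, 68.4 against 41.0.

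Within the 7 MYCN ON tumors, the other members were not shown to follow the Atf4 mRNA. Pearson's r of log2 CPM with Atf4 ranged from 0.091 (Xbp1) to 0.64 (Atf6), and Spearman's rho from 0.21 (Xbp1) to 0.68 (Sesn2). For the highest r, that of Atf6, the exact permutation p was 0.118 and adjusted over 9 relations it was 0.50. Without the 2 tumors farthest from the Atf4 median, MYCN ON tumors 5 and 6, r was lower for 6 members: 0.019 for Atf6, 0.12 for Wfs1, 0.037 for Sesn2, -0.22 for Chac1, -0.61 for Asns and -0.042 for Xbp1. It was 0.36 for Ddit3 (0.36 with them), 0.41 for Trib3 (0.46 with them) and 0.72 for Atf5 (0.33 with them). Leaving out the tumors most extreme in Atf4 also narrows its range, so the lower values cannot show that r rests on those tumors. Among all 45 pairs of members, a family added after seeing the data, r was positive in 38. It was highest for Trib3 with Ddit3 (r = 0.95, exact permutation p = 0.00298, adjusted 0.067; rho = 0.89, exact p = 0.0123, adjusted 0.277), which became 0.63 without the 2 tumors farthest from the Trib3 median. Wfs1 with Atf6 followed (r = 0.89, exact permutation p = 0.00218, adjusted 0.067; rho = 0.79, exact p = 0.048, adjusted 0.36; r = 0.74 without the 2 tumors farthest from the Wfs1 median). No pair passed the correction, and the values of a tumor share its library and depth.

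Over all 11 tumors, which fall into the 2 groups so that the group difference is part of each value, the genes most like Atf4 in log2 CPM were Rrp7a, a ribosome assembly factor (r = 0.96), Klf13, a transcription factor (0.95), and Spopl, an adaptor of cullin ubiquitin ligases (0.94). Those most like Wfs1 were Ypel3, Ficd, the enzyme that modifies the reticulum chaperone BiP, and Os9, a lectin of reticulum-associated degradation (r = 0.97 each). These are descriptions of 3 genes picked for each from 15237.

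Upstream of ATF4, all 3 tested eIF2 subunits and 3 of 5 eIF2B subunits, the factors that eIF2alpha phosphorylation acts on, were higher in MYCN ON, while no eIF2alpha kinase was called. Of 16 genes for these subunits, the kinases other than PERK, the kinase regulators Impact and Gcn1l1 and the phosphatase, 8 were higher, 0 lower and 8 not called (16% higher and 13.4% lower over all genes), with a median log2 fold change of 0.59 beside 0.0023 for all genes. With library totals 6 were higher and 1 lower, beside 1317 higher and 3347 lower among all 15237 genes. The eIF2B subunits Eif2b2 (log2 fold change -0.0099) and Eif2b4 (0.29) were not called, and the other genes called higher, named with these after their values were seen, were Eif2b1, Eif2b3, Ppp1r15b and Impact. Eif2s1, eIF2alpha itself, averaged 167 CPM in MYCN ON and 66.9 in MYCN OFF, a log2 fold change of 1.32 (SE 0.19, edgeR adjusted p = 9.95e-04). Eif2s2, eIF2beta, had a log2 fold change of 1.28, Eif2b5, the catalytic eIF2B subunit, 1.09, and Eif2s3x, eIF2gamma, 1.31, although the last has a near-identical copy on the Y chromosome and is uncertain to that extent. The groups did not overlap for these 4 genes. The amino acid sensor kinase GCN2 (Eif2ak4) had a log2 fold change of 0.47 (adjusted p = 0.075) and PERK (Eif2ak3), which is counted with the sensors that follow, of 0.37 (adjusted p = 0.0732). In TMM-scaled CPM, Eif2ak3 was higher in every MYCN ON tumor but was not called. With library totals its log2 fold change was 0.046 (edgeR adjusted p = 0.845), and that of Eif2ak4 was 0.17 (adjusted p = 0.542).

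Sensors and transducers of the unfolded protein response, Eif2ak3 among them, moved both ways. Of 11 tested genes, 1 was higher, 3 were lower and 7 were not called, with a median of -0.46. Among all genes, 16% were higher and 13.4% lower. Ern1, the IRE1 kinase and nuclease that splices Xbp1 mRNA, averaged 18.8 CPM in MYCN ON and 43.95 in MYCN OFF, a log2 fold change of -1.22 (SE 0.37, edgeR adjusted p = 0.030). Its groups overlapped, at 9.29 to 26.3 CPM in MYCN ON and 13.8 to 66.3 CPM in MYCN OFF. Ern1 lost its call with limma voom (adjusted p = 0.0811) and in edgeR with the tumor number as a block (adjusted p = 0.239). The call was also lost when number 2 or 6 of MYCN ON or number 2 or 4 of MYCN OFF was left out. Creb3l2, a reticulum-bound transcription factor, was lower in every MYCN ON tumor (log2 fold change -1.53, adjusted p = 0.0099). Nfe2l2, the oxidative stress factor NRF2, had a log2 fold change of -1.46 (adjusted p = 0.0083), and Mbtps2, the protease that makes the final cut in ATF6, of 1.20 (adjusted p = 0.0054). Neither Nfe2l2 nor Mbtps2 was called once the lung or the immune score was in the model.

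Among 37 partners and other target genes of ATF4, 9 were higher, 2 lower and 26 not called (median 0.36). The 11 of 37 called are close to the 29.4% of all genes that were called. Pycr1, which makes proline, averaged 29.7 CPM in MYCN ON and 7.64 in MYCN OFF, a log2 fold change of 1.96 (SE 0.31, edgeR adjusted p = 0.0016), and it holds the CARE match printed above. Gars, glycyl-tRNA synthetase, had a log2 fold change of 1.34 and Shmt2, the mitochondrial serine hydroxymethyltransferase, of 1.18. Sqstm1, the autophagy receptor p62, moved in the opposite direction and averaged 176 CPM in MYCN ON and 335 in MYCN OFF, a log2 fold change of -0.93 (adjusted p = 0.0036). The other called members, named after their values were seen, were Nars, Psat1, Aldh18a1, Phgdh, Slc7a1 and Stc2, all higher, and Gdf15, which was lower. Of the 8 genes of this list with a CARE match, 2 were higher and 6 not called. With the lung score in the model 4 genes of the list were called, beside 10.8% of all genes, and with the immune score 3, beside 10.6%. Without MYCN OFF tumor 4 the list had 7 called genes, beside 2938 of all 15237 genes.

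**Figure D5:**
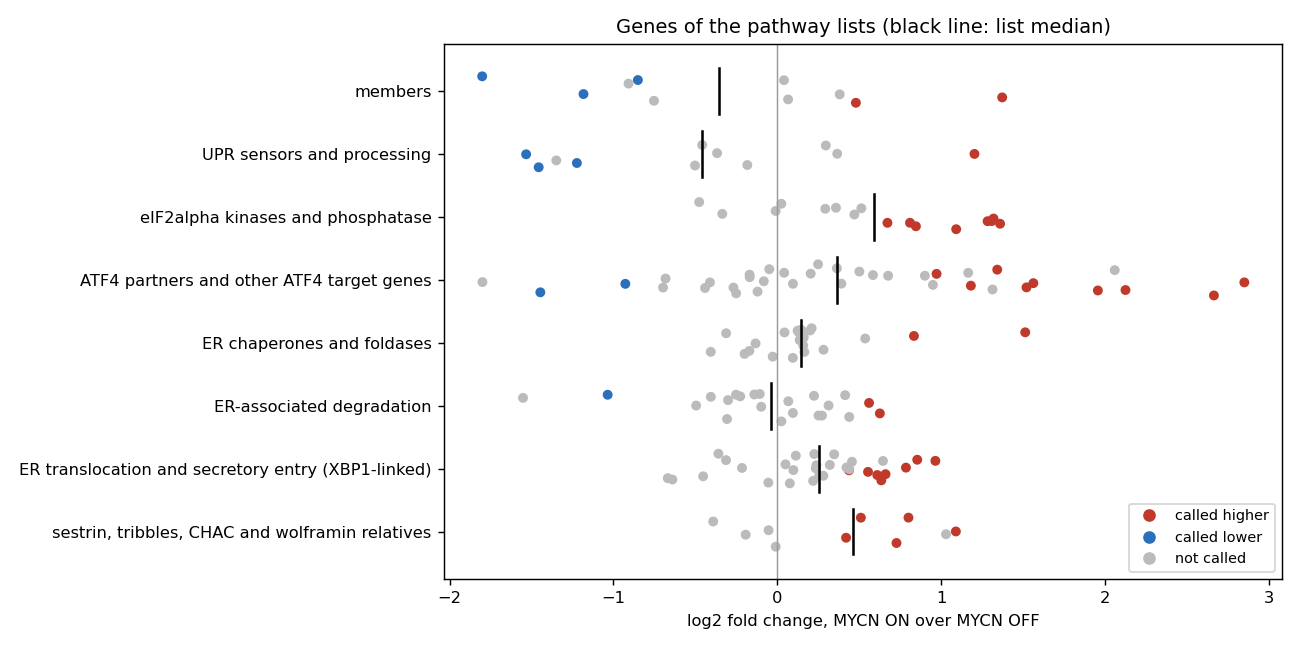
Log2 fold changes (MYCN ON over MYCN OFF) of the tested genes of the 10 members and of 7 pathway lists, coloured by call, with the list median as a black line. The eIF2 list has its median at 0.59 with 8 genes called higher, and the chaperones and foldases lie near 0 with 2 of 23 called.

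Downstream of Xbp1 and Atf6, most reticulum chaperones were not called in either direction. Of 23 chaperones and foldases, 2 were higher, 0 lower and 21 not called (median 0.14), beside 29.4% of all genes called. Hspa5, the chaperone BiP and a standard readout of the unfolded protein response, averaged 610 CPM in MYCN ON and 531 in MYCN OFF, a log2 fold change of 0.20 (SE 0.32, edgeR adjusted p = 0.662). The called genes were Canx, the lectin chaperone calnexin (log2 fold change 0.83, adjusted p = 0.0224), and Ero1l, the reticulum oxidase (1.51, adjusted p = 0.0283). No gene of this list was called higher with upper quartile factors or library totals, with either marker score, or without number 3 or 4 of MYCN OFF, and 1 was called without number 1 of MYCN ON or number 2 of MYCN OFF. Higher calls over all genes numbered 1697 with upper quartile factors, 1317 with library totals, and 1129 and 1025 with the lung and immune scores. They numbered 1785 and 1670 without number 3 or 4 of MYCN OFF. Calls either way were 3593 without number 1 of MYCN ON and 5296 without number 2 of MYCN OFF. Of the 7 genes with an ERSE match, Canx was called and the other 6, Hspa5 among them, were not.

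In reticulum-associated degradation, 2 of 22 tested genes were called higher, 1 lower and 19 in neither direction (median -0.036). Among all genes, 16% were higher and 13.4% lower. Os9, the lectin that hands misfolded glycoproteins to the degradation machinery, averaged 83.95 CPM in MYCN ON and 172 in MYCN OFF without overlap, a log2 fold change of -1.04 (SE 0.15, edgeR adjusted p = 0.00125) and was also called with both marker scores. Vcp, the ATPase that extracts the proteins (0.63, adjusted p = 0.0133), and Faf2, its reticulum adaptor (0.56, adjusted p = 0.0117), were higher, but neither was called with the lung score (adjusted p = 0.0864 and 0.0837), the immune score (0.0855 and 0.0819) or upper quartile factors (0.052 and 0.0619). With library totals both lost their call too and 6 genes were called, all lower. That scaling called 3347 of all 15237 genes lower and 1317 higher. Without MYCN OFF tumor 2, 5 genes of the list were called, beside 5296 of all 15237 genes.

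For entry into the reticulum, 8 of 31 genes were higher, 0 lower and 23 not called (median 0.26). The shares over all genes were 16% higher and 13.4% lower, with 29.4% called. Ssr3 and Ssr1 of the translocon-associated complex had log2 fold changes of 0.97 and 0.79, and Srp19 and Srp72 of the signal recognition particle of 0.66 and 0.85 (edgeR adjusted p = 0.0037, 0.0071, 0.0124 and 0.014). The absence of lower genes depended on the scaling: under library totals, and also under upper quartile factors, 3 genes of the list were higher and 3 lower. All-gene counts were 1317 higher and 3347 lower under library totals, and 1697 and 2894 under upper quartile factors. The 4 named genes stayed positive under both scalings, and Srp19 lost its call in both (adjusted p = 0.098 and 0.0508). Called genes numbered 4 without MYCN ON tumor 1 (3593 of all genes). They numbered 5 without MYCN OFF tumor 1, 3 or 4 (2858, 3345 and 2938 of all genes). With the lung score 2 were called. That score left 10.8% of all genes called.

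Of 10 relatives of the members, 5 were higher, 0 lower and 5 not called (median 0.47). Among all genes, 16% were higher and 13.4% lower. Chac2, the paralog of Chac1, averaged 17.5 CPM in MYCN ON and 8.19 in MYCN OFF, a log2 fold change of 1.09 (SE 0.26, edgeR adjusted p = 0.0104). Creb1 (0.80), Atf2 (0.73) and Atf1 (0.51), transcription factors of the same leucine zipper superfamily as Atf4, were also higher (adjusted p = 0.0138, 0.0182 and 0.0355). With library totals none of these 3 was called, and with either marker score edgeR called 0 genes of the list (4 and 2 at an unadjusted p below 0.05 with the lung and the immune score). Those scores left 10.8% and 10.6% of all genes called. Called genes numbered 2 without MYCN OFF tumor 1 and 3 without MYCN ON tumor 1, 2, 3 or 4 or MYCN OFF tumor 3 or 4. All-gene calls were 2858 without MYCN OFF tumor 1 and 2938 to 3890 in those other fits, beside 4475 with all tumors.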

How the data were processed

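Per the labels' protocols, poly(A) RNA was made into libraries with the NEBNext Ultra RNA kit. The submitters' processing notes name bcl2fastq 1.8.4, TopHat2 2.0.8b, HTSeq 0.6.1 and the build mm9; annotation, options and strand setting are not given in the sources used here. The authors deposited raw read counts per gene symbol, with 5 summary rows that were left out. Of a tumor's records, 14.8% to 21.5% had no feature. Multiply aligned records were 13.8% to 20.9% in MYCN ON and 9.15% to 11.9% in MYCN OFF, without overlap. Ambiguous records (0.947% to 1.04% against 0.831% to 0.884%) and TMM factors (0.835 to 1.01 against 1.09 to 1.22) did not overlap either. How far these differences between the groups affect the calls was not tested.

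Counts were tested with edgeR 4.0.16 (R 4.3.3) after filterByExpr (minimum count 10, minimum total 15), with TMM factors, robust dispersions and no covariate. Standard errors come from the log2 fold change and the root of its F statistic. Marker scores are mean log2 CPM (prior count 2). Alternatives used limma 3.58.1 and DESeq2 1.42.0. On simulated counts for 15237 genes with 200 changed, the test found 16% of the genes changed 2-fold and 57% of those changed 4-fold, with 3.95% false calls. In the data 4475 genes were called, far more than 200. The adjustment depends on that number, so these rates cannot be carried over to the data. Tumors within a group all differed by more than sampling noise (smallest chi-square per gene 50.5). Promoters came from RefSeq (GRCm38.p6) and exon lengths from GENCODE M21, both of another build than the counts.

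The members and lists were chosen with earlier results of these data known. Named genes are the 10 members, Mycn, Eif2ak3, Ern1, Eif2ak4 and Hspa5, plus up to 4 called genes with the smallest p from each list, and the 3 genes most correlated with Atf4 and with the member of smallest p. Other marker lists had 0 of 8 muscle and 0 of 6 fibroblast genes called, 4 of 6 endothelial genes lower, 8 of 10 immune genes lower, 2 of 10 lung genes lower, and 1 of 10 neuroendocrine genes higher and 1 lower.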

Additional observations from a re-analysis of the deposited data

How the results depend on the processing

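Wfs1 and Ddit3 kept their direction under all 24 alternatives. Wfs1 lost its call only in the lung-poor and lung-containing tumors alone, and Ddit3 there and with the replicate block. Scaling moved the median of all genes by -0.31 (library totals) and -0.21 (upper quartile factors), and higher genes numbered 1317 against 3347 lower with library totals, 1697 against 2894 with upper quartile factors and 2142 against 2323 with RLE factors, beside 2437 against 2038. Counts of called genes follow in the order members, sensors, ATF4 targets, chaperones, degradation, entry and relatives, which were 5, 4, 11, 2, 3, 8 and 5. With the lung score in the model they were 2, 2, 4, 0, 1, 2 and 0 (all genes 1646 in place of 4475), and with the immune score 2, 2, 3, 0, 1, 4 and 0 (all genes 1613), with 5 in place of 8 for the eIF2 list. At an adjusted p below 0.01, members numbered 2, ATF4 targets 7, chaperones 0, degradation 1, entry 2, relatives 0 and all genes 1703. In the lung-poor and the lung-containing tumors alone, edgeR called 0 members and 0 genes. Library totals gave 1 chaperone, 6 degradation genes and 2 relatives; upper quartile factors gave 0 chaperones and 3 relatives; RLE factors, no filter and a minimum count of 50 each gave 3 relatives. For the 0 counts of chaperones, 2 to 4 genes had an unadjusted p below 0.05, and DESeq2 and limma voom called 2 each.

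Tumors of both groups share numbers 1 to 4, and the labels do not say whether same-numbered tumors are paired. Same-numbered tumors did not deviate together throughout (correlations of -0.16, 0.46, -0.076 and 0.26). Of 4 MYCN OFF tumors, 2 correlated best with their own number. So few correlations cannot decide whether the tumors are paired. With the replicate block 3024 genes were called, 3 members (Ddit3 at adjusted p = 0.0638, Atf4 at 0.0601), 1 sensor and 1 relative. Leaving out each tumor in turn gave 2858 to 5296 genes, 2 to 5 members, 3 to 6 sensors, 7 to 11 ATF4 targets, 0 to 2 chaperones, 3 to 5 degradation genes, 4 to 8 entry genes, 6 to 8 eIF2 genes and 2 to 6 relatives. Of the correlations with Atf4 within MYCN ON, 0 of 9 passed in any setting, with 0 at an unadjusted p below 0.05 in all tumors. In the promoters without the 50 bases after the start, 2 members held a CARE match in place of 3. Trib3, Chac1 and Sesn2 had 12 to 159 reads per tumor, and whether depth limits their tests was not tested.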
